A study of Drosophila melanogaster with 6 samples.

Results

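In the Drosophila melanogaster cell line Kc167, 359 of the 3223 H3K27acS28ph peaks called on the chromosome arms (11.1%, 95% Wilson interval 10.1 to 12.3) overlapped no called peak of H3K4me3, H3K4me1 or H3K27ac by even 1 bp. These 359 are called unmarked peaks here, which says only that no peak of these 3 marks was called over them. They were chosen by those overlaps, on the scaffolds 2L, 2R, 3L, 3R, X and 4, out of 5634 H3K27acS28ph peaks on all scaffolds. The remaining 2864 arm peaks, which overlapped at least 1 of the 3 marks, served as the comparison. Chromatin immunoprecipitation followed by sequencing (ChIP-seq) was done with 6 antibodies, to H3K4me3, H3K4me1, H3K27ac, H3K9acS10ph, H3K27acS28ph and JIL-1. Each antibody has 1 library. Of the H3K27acS28ph peaks, 57.2% lay on the arms, against 98.5% to 99.7% of the peaks of each other antibody. The line comes from a female late embryo, grew in serum-free medium, and has no treatment named in the labels; its identity was not checked, since the lists name no genes. No library was replicated, so no difference given here has a test, and each interval covers counting error within 1 list, treating neighbouring peaks as if they were independent. The lists hold positions and scores with no reads, so the depth behind them is unknown. The list also cannot tell a modification on more cells from more of it per cell.

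H3K27acS28ph is histone H3 carrying an acetyl group on lysine 27 and a phosphate on the serine beside it. Lysine 27 is also the residue that Polycomb group proteins methylate, and phosphorylation of its neighbouring serine is known to accompany release of those proteins from chromatin. H3K4me3 marks active promoters, H3K4me1 marks enhancers and the flanks of promoters, and H3K27ac marks both when active. H3K9acS10ph is the corresponding double modification at lysine 9 and serine 10, and JIL-1 is a chromosomal kinase known for phosphorylating that serine outside mitosis. An arm peak of H3K27acS28ph outside the first 3 marks is therefore one outside called promoter and enhancer chromatin.

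The unmarked peaks were found on every arm. There were 84 on X, 75 on 3R, 73 on 2L, 69 on 3L, 52 on 2R and 6 on the small chromosome 4. As a share of the H3K27acS28ph peaks of each arm they ran from 8.16% on 2R (6.28 to 10.5) to 15.6% on 2L (12.6 to 19.2) among the 5 large arms. Chromosome 4 had 6 unmarked peaks of 20 (30%, 14.5 to 51.9). Per Mb, they numbered from 2.46 on 2R to 3.75 on X among the large arms, while the other arm peaks numbered from 17.2 on 2L to 27.7 on 2R. Chromosome 4 had 4.56 unmarked and 10.6 other peaks per Mb. The arm with the fewest unmarked peaks per Mb among the large arms was thus the arm with the most of the other kind.

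In width, the unmarked peaks had nearly the same median as the other arm peaks but a long upper tail. Their median was 1568 bp (95% order-statistic interval 1397 to 1755), against 1444 bp (1414 to 1474) for the others. The lower quartiles were 1032.5 and 1096 bp, the upper quartiles 2858.5 and 1981 bp, and the 95th percentiles 7930 and 3298 bp. The order of the medians rests on the widest peaks, since without those of 7.5 kb or more they were 1399 bp for the unmarked peaks and 1439.5 bp for the others. The share of unmarked peaks was lowest at middling widths and highest among the widest peaks. Of arm peaks narrower than 1 kb, 16.7% (77 of 460, 13.6 to 20.4) were unmarked. The share was 6.68% (45 of 674, 5.03 to 8.82) between 1.5 and 2 kb, and it was 18.9% (35 of 185, 13.9 to 25.2) between 3 and 5 kb. It reached 37.8% (17 of 45, 25.1 to 52.4) between 5 and 7.5 kb and 70.8% (34 of 48, 56.8 to 81.8) at 7.5 kb or more. Width is tied to the rule, since a wide peak has more room to touch a marked one, so these shares describe the list and were not tested.

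**Figure D1:**
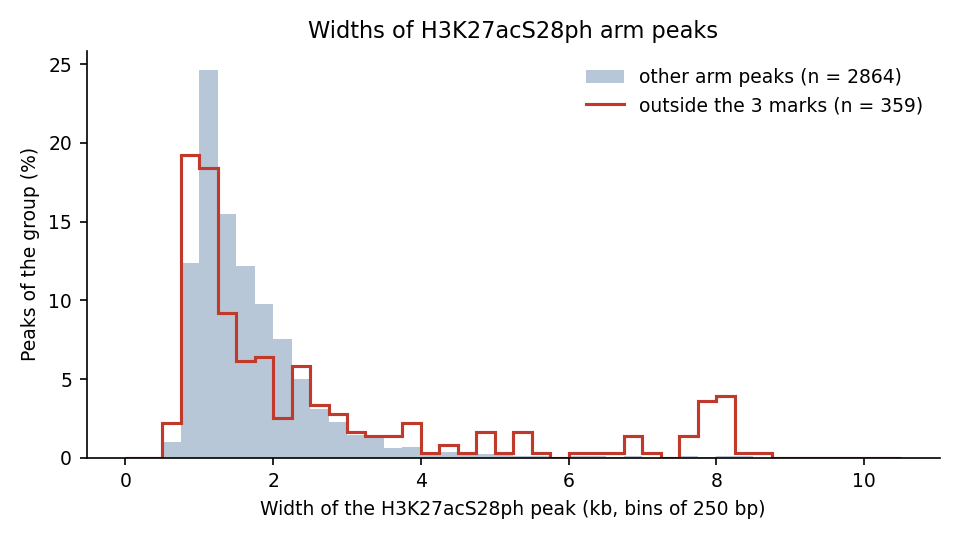
Percentage of peaks per 250 bp bin of width, for the 359 unmarked peaks (red line) and the 2864 other H3K27acS28ph arm peaks (blue fill). Both groups are densest near 1 kb, and the unmarked peaks have a separate group just under and above 8 kb that holds 34 peaks of 7.5 kb or more.

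The widest unmarked peaks lay in a narrow range of widths. At 7.5 kb or more there were 34 of 359 unmarked peaks (9.47%, 6.86 to 12.9), against 14 of 2864 others (0.489%, 0.291 to 0.819) and 1.49% of all arm peaks. These 34 ran from 7518 to 8642 bp with a median of 7971.5 bp. All but 2 of them fell in the first 3 bins of 250 bp from 7.5 kb upwards, whereas 1 unmarked peak lay between 7 and 7.5 kb and 17 between 5 and 7.5 kb. Those 3 bins also held 8 of the 14 others. Of H3K27acS28ph peaks that wide off the arms, they held 5 of 6 on the assembled heterochromatin scaffolds. On the unplaced scaffolds they held 4 of 13 on U and 2 of 3 on Uextra. The limit of 7.5 kb was chosen after the widths were seen. The 34 peaks were scattered, with 9 on 3L, 7 on 2L, 7 on 2R, 6 on 3R, 5 on X and 0 on chromosome 4. Another H3K27acS28ph arm peak lay within 10 kb of 8 of the 34 and of 7 of the 14 others. Such a neighbour was found for 41.5% of all unmarked peaks and 72.6% of all arm peaks. An unmarked peak lay that close to 2 of the 34 and 0 of the 14. It did so for 26.2% of all unmarked peaks and 6.05% of all arm peaks.

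Most of the 14 other arm peaks of 7.5 kb or more barely met the marks. In 8 of them the 3 marks together covered under 10% of the peak, by an overlap of 34 to 646 bp, and the overlapping mark was H3K4me1 in all 8 and also H3K4me3 in 1. At most 7.65% of any of the 8 was covered, and their scores ran from 56.1 to 2211. The median score of these 8 was 1441, and 6 of them reached 1000. The remaining 6 were covered over 10.3% to 100% of their length, with a median score of 730, and 2 of them reached 1000. The DNA sequence under the peaks was not analysed here.

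By the authors' peak score, which is compared only between peaks of 1 list, the unmarked peaks were lower than the other arm peaks at the middle and nearly level at the top. Their median score was 107 (91.2 to 125), against 146 (139 to 153). The lower quartiles were 63.5 and 82.3 and the upper quartiles 230 and 293. No score in the list was below 50.01, so the lower quartile of the unmarked peaks lay close to that floor. Scores of 1000 or more were reached by 17 unmarked peaks (4.74%) and by 137 others (4.78%), a level chosen after the scores were seen. Score rose with width in both groups, and within each of the 7 width classes the median of the unmarked peaks was the lower one. It was 58.2 against 68.9 below 1 kb, 88.6 against 112 between 1 and 1.5 kb, and 188 against 309 between 2 and 3 kb. From 3 to 5 kb it was 347 against 455, where the intervals (225 to 418 and 353 to 636) overlapped. They also overlapped from 5 to 7.5 kb (443 against 876) and at 7.5 kb or more (508 against 1233). With the list cut to its upper 50% by score the medians were 300.5 for 148 unmarked peaks and 287 for the others. Their order was then the opposite one, but the cut was made on the score itself. No interval was computed for these medians, so they do not test the main order.

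The strong unmarked peaks were almost all wide ones. Of the 17 with a score of 1000 or more, 14 were at least 7.5 kb wide, compared with 8 of the 137 others. Within the widest group the score varied from 67.4 to 2331 at nearly constant width, with a median of 508. It differed on either side of 8 kb, a limit also chosen after the values were seen. The 18 peaks from 7518 to 7985 bp had a median score of 172, and 2 of them reached 1000. The 16 peaks from 8025 to 8642 bp had a median of 1594, and 12 of them reached 1000.

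**Figure D2:**
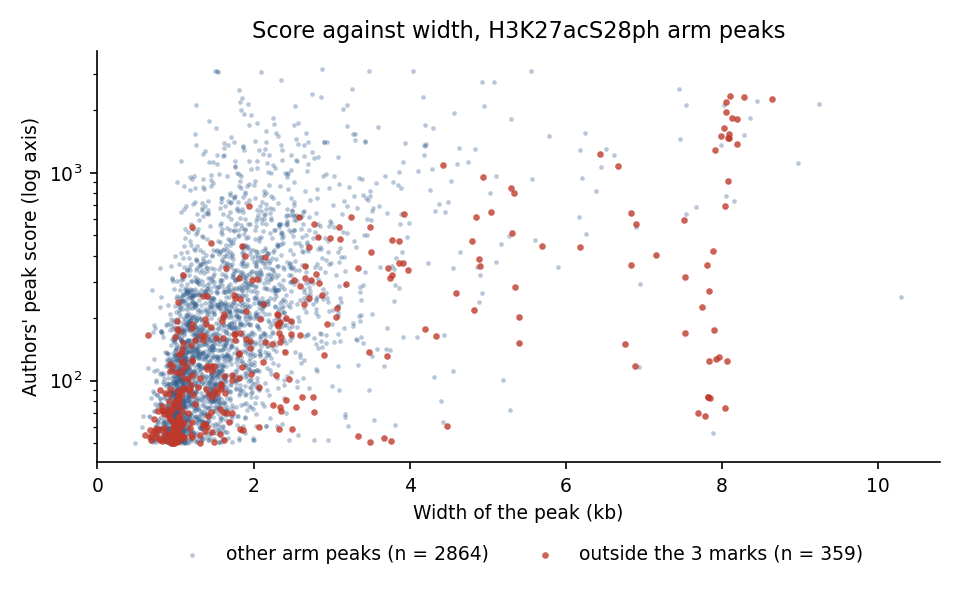
Authors' peak score (log axis) against peak width in kb, 1 point per H3K27acS28ph arm peak, unmarked peaks in red and the others in blue. The unmarked peaks near 8 kb form a vertical band from 67.4 to 2331, and its upper end holds the highest unmarked scores.

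All 10 highest-scoring unmarked peaks belonged to this group of widths, from 7985 to 8642 bp. Coordinates are 1-based on scaffolds with the names of release 5 of the fly genome. The highest score, 2331, was that of a peak on X from 445174 to 453276, which ranked 16th among all arm peaks. It was 20.9 kb from the nearest called mark and 57.3 kb from the next H3K27acS28ph peak. On 3L, the peak from 9069768 to 9078051 scored 2307 and lay 996 bp from an H3K4me1 peak. Also on 3L, the peak from 4327913 to 4336554 scored 2265, and at 8642 bp it was the widest unmarked peak of the list. A further pair on that arm, at 11557771 to 11565825 and 1219410 to 1227459, scored 2184 and 1953. The sixth score, 1828, was on 2R from 19801674 to 19809802, with an H3K4me1 peak 813 bp away. The peaks on 3R from 26201101 to 26209295 and from 13334763 to 13342787 scored 1815 and 1650, and their nearest marks lay 1.75 and 13.8 kb away. The peak on X from 189765 to 197858 scored 1538 and the peak on 3L from 1047405 to 1055389 scored 1506. Of the 5 widest unmarked peaks, 4 were among these 10, and the other lay on 2R from 20034402 to 20042598 with a width of 8197 bp and a score of 1372. None of the 10 overlapped H3K9acS10ph or JIL-1, and neither was overlapped by 81.1% of all unmarked peaks and 11.4% of all arm peaks. Of the 10, 8 had no other H3K27acS28ph peak within 10 kb, compared with 58.5% of all unmarked peaks and 27.4% of all arm peaks.

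The rule did not use H3K9acS10ph or JIL-1, and both were scarce over the unmarked peaks. H3K9acS10ph overlapped 44 of 359 (12.3%, 9.26 to 16.1), against 84.2% of all H3K27acS28ph arm peaks and 93.3% of the others (2671 of 2864, 92.3 to 94.1). JIL-1 overlapped 39 (10.9%, 8.05 to 14.5), against 77.4% of all arm peaks and 85.7% of the others (2454 of 2864, 84.4 to 86.9). JIL-1 has the longer list, and when only its 6873 strongest arm peaks by score were kept, as many as H3K9acS10ph has, its share was 5.85% of the unmarked peaks and 74.8% of the others. When only the upper 50% of each of the 3 marks was used to choose the peaks, the shares were 27.1% for H3K9acS10ph and 21.0% for JIL-1 over 499 peaks. Both were present at 15 unmarked peaks, H3K9acS10ph alone of the pair at 29 and JIL-1 alone at 24. The remaining 291 (81.1%, 76.7 to 84.8) overlapped no other list of the series, compared with 78 others that had neither (2.72%, 2.19 to 3.39) and 11.4% of all arm peaks. Peaks of H3K9acS10ph and JIL-1 themselves largely lay over the 3 marks, so these readouts are not independent of where the marks were called.

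The unmarked peaks with H3K9acS10ph or JIL-1 were mostly narrow. Among unmarked peaks under 2 kb, 18.6% overlapped H3K9acS10ph (41 of 221, 14.0 to 24.2) and 15.4% overlapped JIL-1 (34 of 221, 11.2 to 20.7). At 2 kb or more the shares were 2.17% (3 of 138, 0.742 to 6.20) and 3.62% (5 of 138, 1.56 to 8.20), although a wider peak has more room to meet another. Among the other arm peaks JIL-1 went the opposite way across this limit, from 83.6% of 2160 to 92.2% of 704, and H3K9acS10ph went from 94.4% to 89.9%. The 68 unmarked peaks with either list had a median width of 1081 bp (1007 to 1216) and a median score of 84.7 (73.5 to 95.2). The 291 with neither had medians of 1766 bp (1579 to 2067) and 118 (103 to 144). Of the 34 peaks of 7.5 kb or more, 31 had neither. Among the other arm peaks of that width, 4 of 14 overlapped H3K9acS10ph and 3 of 14 overlapped JIL-1.

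**Figure D3:**
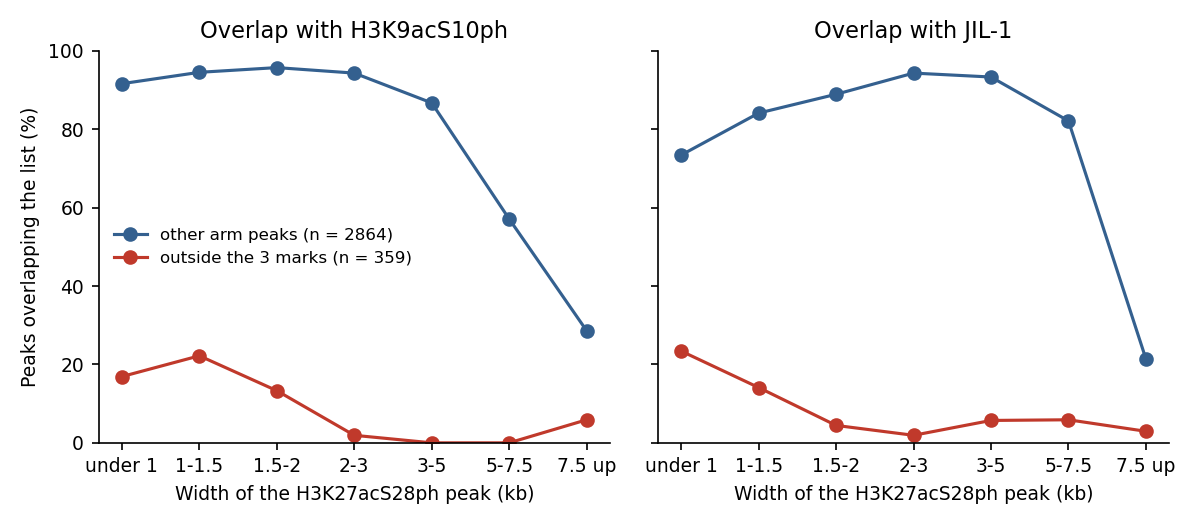
Percentage of H3K27acS28ph arm peaks that overlap H3K9acS10ph (left) or JIL-1 (right) by at least 1 bp, by class of peak width in kb, for unmarked peaks (red) and other arm peaks (blue). Unmarked peaks stay below 25% in every class, and the others fall to 28.6% and 21.4% in the class of 7.5 kb or more, which holds 14 of them.

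Most unmarked peaks lay clearly apart from the marks that define them, and a minority missed them by a short gap. The median gap to the nearest H3K4me3, H3K4me1 or H3K27ac peak was 7.03 kb (5.57 to 8.29), with quartiles of 2.06 and 18.3 kb and a maximum of 168 kb. A gap under 500 bp was found for 32 peaks (8.91%), from 500 to 1000 bp for 19, from 1 to 5 kb for 99, from 5 to 10 kb for 66, from 10 to 50 kb for 113 and of 50 kb or more for 30. The nearest mark was H3K4me1 for 145 peaks, H3K4me3 for 138 and H3K27ac for 76. Overlap with H3K9acS10ph went down along this distance, from 21.9% of the peaks under 500 bp to 5.31% from 10 to 50 kb and to 1 of 30 at 50 kb or more. For JIL-1 the values were 21.9%, 8.85% and 0 of 30. Median width also differed between these 3 classes, at 1060.5, 1850 and 1791.5 bp. From 500 to 1000 bp it was 1969 bp, and there 21.1% overlapped H3K9acS10ph. The part of width in this decline was not tested.

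Just inside the rule, the 5 smallest gaps were 10, 15, 21, 49 and 49 bp. They belonged to a peak of 7958 bp on 2L from 1219944 to 1227901 with a score of 131, then in order to 3L 20476004 to 20477811 (score 134), 3R 21864953 to 21865995 (score 84.7), 3L 6046613 to 6047619 (score 80.55) and 3R 23011496 to 23012324 (score 57.7). Just outside it, the 5 smallest overlaps were 14, 20, 23, 34 and 37 bp, all with H3K4me1. The first was a peak of 6453 bp on 3R from 1572624 to 1579076 with a score of 1071, and the fourth a peak of 8281 bp on 3R from 22965987 to 22974267 with a score of 1526.5. The second (2L 3649927 to 3652295), the third (3L 4896756 to 4898492) and the fifth (3R 897584 to 899210) scored 214, 314 and 185. These last 5 are counted with the other arm peaks although at most 2.27% of any of them was covered.

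The unmarked peaks stood more alone than the other arm peaks. The median distance from an unmarked peak to the nearest other H3K27acS28ph arm peak was 13.8 kb (10.8 to 19.3), against 2.66 kb (2.48 to 2.84). Another arm peak of the list lay within 10 kb of 149 unmarked peaks (41.5%, 36.5 to 46.7), compared with 76.5% of the others (74.9 to 78.1) and 72.6% of all arm peaks. When they did have company, it was often their own kind. For 90 of those 149 (60.4%, 52.4 to 67.9) the nearest neighbour was another unmarked peak, whereas among the 2192 others with a neighbour within 10 kb it was an unmarked one in 39 (1.78%, 1.30 to 2.42). Unmarked peaks make up 11.1% of the list. Neighbouring peaks share their surroundings, and the rule depends on where the 3 marks were called. This contrast is therefore tied to the rule and was not tested.

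**Figure D4:**
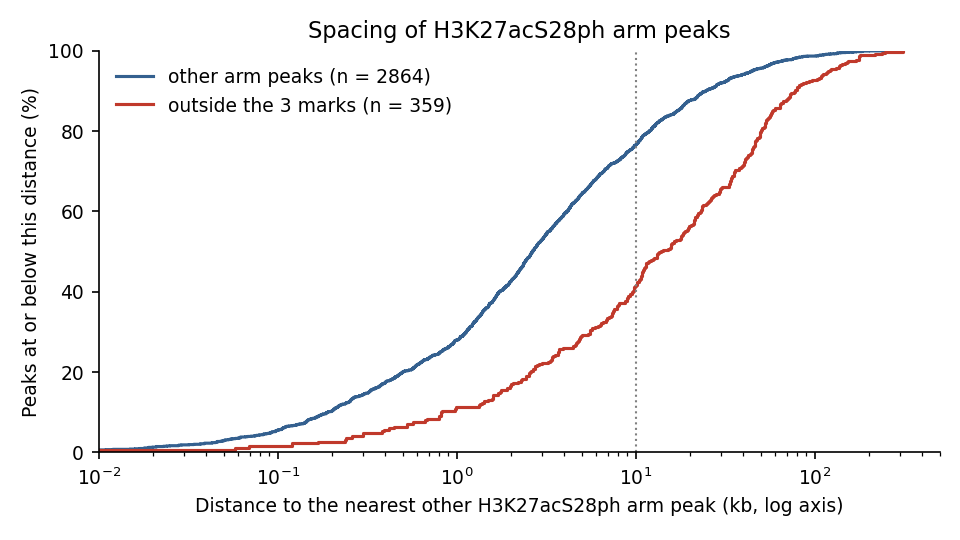
Cumulative percentage of H3K27acS28ph arm peaks by distance to the nearest other arm peak of the list (kb, log axis), unmarked peaks in red and others in blue, with a dotted line at 10 kb. At that line the curves stand at 41.5% and 76.5%.

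Chained at gaps of up to 10 kb, the unmarked peaks fell into 304 groups. There were 265 single peaks, 32 pairs, 4 groups of 3 and 1 group each of 4, 5 and 9. Thus 94 peaks (26.2%, 21.9 to 31.0) had another unmarked peak within 10 kb. An unmarked peak lay that close to 101 of the 2864 others (3.53%, 2.91 to 4.27) and to 6.05% of all arm peaks. No other H3K27acS28ph arm peak lay inside the 7 groups of 3 or more, and no peak in them overlapped H3K9acS10ph or JIL-1. Neither was overlapped by 81.1% of all unmarked peaks and 11.4% of all arm peaks. The 5 largest, with ties at 3 members ordered by span, were 4 groups on X and 1 on 2L.

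The largest group lay on 2L from 21481548 to 21539566 and held 9 peaks in 58.0 kb. Its peaks were 1026 to 3052 bp wide and scored from 50.8 to 203. At a chaining distance of 50 kb the group took in 3 more peaks and ran from 21437336 to 21539566, with 12 unmarked peaks in 102 kb. In that stretch there was no called peak of H3K4me3, H3K4me1, H3K27ac, JIL-1 or H3K9acS10ph, and no other H3K27acS28ph peak. The sequence of the stretch, including any repeats, was not analysed, and the lists hold no reads. A list without a called peak here therefore does not show that its mark was absent. Of the 11 distances from one start to the next, 5 were of similar size (5093, 5164, 5333, 5758 and 5944 bp) and 3 were about that much again (9048, 10200 and 10741 bp). The other three were 3781, 14189 and 24079 bp. This grouping, and the choice of 50 kb for this stretch, were made after the distances were seen.

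On X, 5 unmarked peaks lay from 21584097 to 21612004, with widths of 990 to 5698 bp and scores of 63.8 to 645, and every one was at least 80.3 kb from a called mark. A group of 4 lay on X from 21789950 to 21799924, with scores of 79.6 to 486 and at least 44.9 kb to a mark. A group of 3 on X from 21481756 to 21491291 held peaks of 990 to 1038 bp with scores of 60.6 to 67.45. Unlike these, the group of 3 on X from 17782655 to 17799739 lay 4.62 Mb from the centromeric end of its arm and came within 0.237 kb of a called mark. Its scores were 203 to 250.

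Unmarked peaks made up a larger share of the list near the centromeric ends of the arms. On the 5 large arms, 63 of 353 unmarked peaks (17.8%, 14.2 to 22.2) lay within 1 Mb of an arm end, against 203 of 2850 others (7.12%, 6.24 to 8.13) and 8.3% of all peaks there. The centromeric ends accounted for 45 of them (12.7%, 9.67 to 16.6), against 89 others (3.12%, 2.54 to 3.83) and 4.18% of all. At the distal, telomeric ends there were 18 (5.10%, 3.25 to 7.92), against 114 others (4%, 3.34 to 4.78) and 4.12% of all, and these intervals overlapped. Those 18 had a median width of 2795.5 bp and a median score of 355, against 1629 bp and 156.5 for the 114 others. Seen from the list, 33.6% of the H3K27acS28ph peaks in the first Mb from a centromeric end were unmarked (45 of 134, 26.1 to 41.9). The share was 20.9% in the second Mb (32 of 153, 15.2 to 28.03), 17.3% in the third (22 of 127, 11.7 to 24.8), 9.72% from 3 to 5 Mb and 9.09% beyond 10 Mb.

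**Figure D5:**
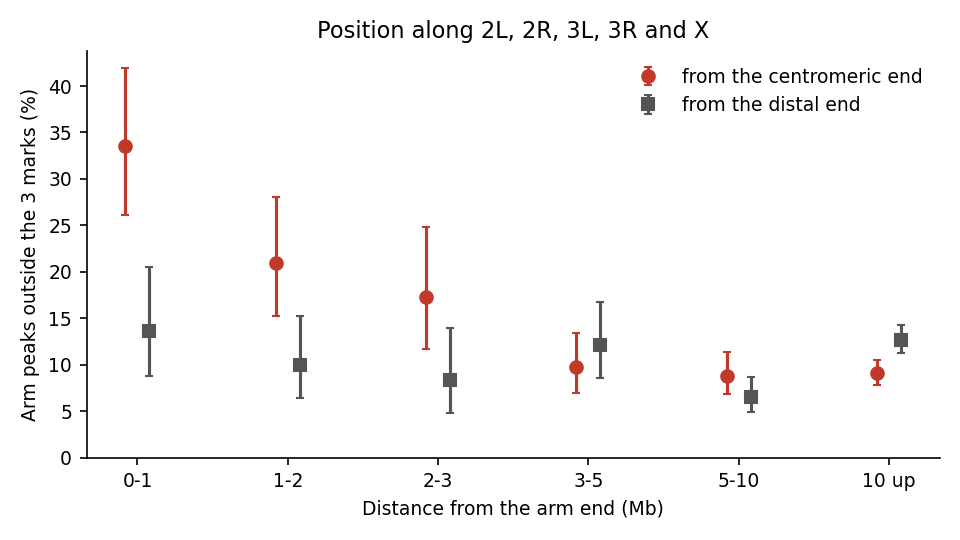
Percentage of H3K27acS28ph peaks on 2L, 2R, 3L, 3R and X that are unmarked, by distance in Mb from the centromeric end (red circles) and from the distal end (grey squares), with 95% Wilson intervals as bars. The share falls from 33.6% in the first Mb from the centromeric end to 9.72% at 3 to 5 Mb, while from the distal end it lies between 6.55% and 13.6%.

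The called marks themselves thinned out in the same places. Within 1 Mb of the centromeric ends the union of H3K4me3, H3K4me1 and H3K27ac covered 14.3% of the sequence, with 108 peaks of the 3 lists per Mb, against 28.3% and 205 per Mb away from both kinds of end. The part of this in the share of unmarked peaks was not tested. In absolute terms there were 9 unmarked peaks per Mb within 1 Mb of the centromeric ends and 2.66 per Mb away from the ends, while the other H3K27acS28ph peaks numbered 17.8 and 24.3 per Mb. Per Mb, unmarked peaks were thus more numerous there and the others fewer. At the distal ends the marks covered 35.8% of the sequence and there were 3.6 unmarked peaks per Mb.

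The arms contributed unequally. Of the 45 unmarked peaks within 1 Mb of a centromeric end, 19 lay on X, 11 on 2L, 7 on 2R, 4 on 3L and 4 on 3R. On X they were 19 of 32 H3K27acS28ph peaks in that Mb (59.4%, 42.3 to 74.5), and on 3R 4 of 30. The 19 peaks on X lay between 21481756 and 22028793, 14 of them within 10 kb of another, with widths from 990 to 8091 bp and scores from 60.6 to 1475. Their median gap to a called mark was 53.8 kb, and none overlapped H3K9acS10ph or JIL-1. The same stretch held 24 JIL-1, 18 H3K9acS10ph, 19 H3K4me3, 22 H3K4me1 and 16 H3K27ac peaks. Of all 45 unmarked peaks within 1 Mb of a centromeric end, 4 overlapped H3K9acS10ph and 1 overlapped JIL-1. Of the 89 other H3K27acS28ph peaks there, 80 and 74 did. Without X, 9.67% of unmarked peaks and 3.33% of others lay within 1 Mb of a centromeric end.

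Near the centromeric ends the unmarked peaks were of ordinary width and often grouped. Their median width was 1430 bp (1136 to 2124), against 1580 bp (1399 to 1766) for unmarked peaks farther away, and only 2 of the 45 were 7.5 kb or wider, compared with 32 of 308. Their median score was 137 (89.35 to 158), against 107 (90.5 to 125). Another unmarked peak lay within 10 kb of 27 of the 45 (60%), against 64 of the 308 (20.8%). For the other arm peaks the shares with an unmarked peak that close were 4.49% there and 3.51% farther away. Of those 27, 14 were on X. Unmarked peaks were also denser there, at 9 per Mb against 2.66 away from the ends, and the part of density in this grouping was not tested. Their median gap to a called mark was 18.4 kb, against 6.59 kb.

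The outermost unmarked peaks lay at very different distances from the arm ends, which are the largest peak end of any list or position 1. On 2L, the last peak of any list was an unmarked one and so sets that end, from 23007661 to 23009568 with a score of 158, and the most distal unmarked peak, from 47361 to 52665, was 5305 bp wide and scored 515. On 2R the first lay from 4619 to 6943 (score 169), and on X the most distal lay from 6272 to 7923 (score 349). On chromosome 4 an unmarked peak from 1314689 to 1315896 (score 107) likewise sets the end, and the one nearest the centromeric side lay from 340955 to 341937, 341 kb in. On 3R the most distal was a wide peak of 7744 bp from 27823591 to 27831334. On 3L the most distal unmarked peak was the high-scoring one of 7985 bp already given, 1051 kb from the end, and the most centromeric lay from 24457838 to 24459267. The others were on 3R from 318880 to 319982, which overlapped H3K9acS10ph over its whole width, on X from 22022043 to 22028793, and on 2R from 20646906 to 20647894, at 319, 391 and 469 kb from their ends.

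Arm peaks of H3K9acS10ph and JIL-1 that lay outside the same 3 marks were narrower at the top and less concentrated near the centromeric ends in these lists. There were 504 such H3K9acS10ph peaks (7.33% of its arm peaks) and 3143 such JIL-1 peaks (25.6%). The widest were 6186 and 2810 bp, and none reached 7.5 kb, against 34 of the 359 H3K27acS28ph peaks. Their median widths were 1529 and 749 bp, below the 2332 and 1210 bp of the rest of their own lists. Within 1 Mb of a centromeric end lay 3.97% of the H3K9acS10ph set (20 of 504, 2.58 to 6.05) and 2.18% of the JIL-1 set (68 of 3122, 1.72 to 2.75), beside 2.49% and 2.05% of the rest of those lists. Of the H3K9acS10ph set, 36 (7.14%) met an unmarked H3K27acS28ph peak, and of the JIL-1 set 37 (1.18%). The lists differ in length and in unknown depth, and peak numbers and widths move with both.

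The H3K27acS28ph peaks on the heterochromatin and unplaced scaffolds are given whole and were not chosen by the 3 marks. On the assembled heterochromatin scaffolds there were 131, with a median width of 1654 bp (1523 to 1874) and a median score of 112 (95.9 to 170). The unmarked arm peaks had medians of 1568 bp and 107, and the other arm peaks 1444 bp and 146. Of those 131 peaks, 6 (4.58%) were 7.5 kb or wider. On the unplaced scaffold U 13 of 262 peaks (4.96%) were, up to 25381 bp, with a median width of 1725.5 bp (1588 to 2033). On the unplaced collection Uextra 3 of 2018 peaks were, and there the median width was 1100 bp (1088 to 1117). Median scores were higher, at 304 (230 to 388) on U and 165 (155 to 174) on Uextra.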

How the data were processed

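ChIP-seq libraries were made from fixed and sonicated Kc167 chromatin with 1 of 6 antibodies each, amplified by PCR and selected by size, per the labels' protocols. Bowtie 0.12.5 is named in the submitters' processing notes. Names of the deposited peaks carry MACS. Which settings and control it used, and on which build, is not given in the sources used here. For every library the authors deposited 1 peak list, each peak with a start and end in bp and a score with no stated unit, which was compared only within a list and, in the alternatives, used to shorten other lists by rank. The deposited positions, another kind of value than the score, include 2 starts below 0, none of them on the arms. Depth is not given by the lists.

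Samples were grouped by antibody. Overlap meant at least 1 bp, gaps were taken edge to edge, groups were chained at 10 kb, and arm ends were the largest peak end over the 6 lists, with midpoints used for distances. The centromeric side of each arm was assigned from the standard orientation of the fly arms (right for 2L, 3L and X, left for 2R, 3R and 4), not from the files. Chromosome 4 was left out of shares by arm end. Shares have 95% Wilson intervals and medians have 95% binomial order-statistic intervals. Named regions are the 10 highest-scoring and 5 widest unmarked peaks, the 5 largest groups, the peak nearest each arm end, and the 5 peaks on either side of the rule. The members, the lists and the alternatives were chosen with earlier results of these data known. A gene table of another release was not used, so no genes or sequences are named. Python 3.11.15, numpy 2.4.6, pandas 2.3.3 and scipy 1.17.1 were used, and the overlap procedure was tested on 3000 simulated peaks, all of which were recovered.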

Additional observations from a re-analysis of the deposited data

How the results depend on the processing

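Of 69 values under other settings, 46 stayed on the same side and close to the main value, 20 moved and 3 changed the order of unmarked and other peaks. The cause was not tested. With the 3 marks reduced to their upper 50% by score, 499 peaks were unmarked; their median width was 1369 bp against 1464 bp for the others, which turned the order, their median score 90.1, and H3K9acS10ph overlapped 27.1%, JIL-1 21.0% and neither 64.7%. With the H3K27acS28ph arm peaks reduced in the same way, 148 were unmarked. Their median width was 2782 bp, and 29.1% had an arm peak of the list within 10 kb. H3K9acS10ph overlapped 8.11% of the 148, JIL-1 6.76% and neither 87.2%. Their median score was 300.5 against 287, which turned the order, although this cut was made on the score itself and no interval was computed. JIL-1 overlapped 7.07% where 50% of the shorter peak had to be covered, and 5.85% with its list shortened. An arm peak of the list lay within 5 kb of 29.0% and within 50 kb of 79.9%. Within 500 kb of an arm end lay 7.65%, and within 2 Mb 32.0%. Another unmarked peak lay within 5 kb of 21.2% and within 50 kb of 43.2%. From a centromeric end, 4.82% lay within 500 kb and 21.8% within 2 Mb. The shares at 5 kb, 50 kb, 500 kb and 2 Mb differ because the distance itself was changed. Without peaks of 7.5 kb or more, a setting added after seeing the data, the median width was 1399 bp against 1439.5 bp. Leaving out X or 2L, and counting peaks covered under 10% as unmarked, were also added then and changed no order. No paired analysis was possible because there was 1 library per antibody, and for the same reason no replicate could be left out. Depth could not be read from the lists, so a mark below the calling threshold cannot be told from its absence.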
